A study of Mus musculus with 23 samples.

Results

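Transcripts of 10 genes for endoplasmic reticulum chaperones and stress regulators were followed across sorted cells of the mouse incisor: Hspa5, Hsp90b1, Calr, Canx, Pdia3, Pdia4, Pdia6, Xbp1, Ddit3 and Dnajb9. They were chosen by name as one pathway and taken by symbol from the 54347 genes of the count table, and all 10 had counts in every library and passed the filter on low counts. No threshold on a measured value was set, but the list was drawn up with the differences between populations and batches in these libraries in view, so the calls below describe these genes and are not independent evidence about the group. The cells came from the labial cervical loop, an epithelial fold at the growing end of the lower incisor, of Sox2-GFP mice at postnatal day 2. In these mice the Sox2 gene's own promoter drives green fluorescent protein, and all groups carry this reporter. Cells were sorted by fluorescence into Sox2-positive and Sox2-negative fractions on each of 2 days with different mice, called batch A and batch B, which gave 6 Sox2-negative and 6 Sox2-positive libraries in batch A, and 4 Sox2-negative and 7 Sox2-positive libraries in batch B. The labels do not say whether libraries of 1 batch came from separate animals, so the spread and p-values below measure variation between libraries, which may be technical. The strain, the sex and the number of mice per library are not given in the sources used here.

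Proteins destined for secretion or for membranes fold in the endoplasmic reticulum. The chaperones HSPA5 (BiP) and HSP90B1 (GRP94) hold unfolded chains, calnexin and calreticulin retain glycoproteins until they are folded, and protein disulfide isomerases make and exchange disulfide bonds. When folding falls behind, the unfolded protein response raises these helpers through ATF6, XBP1 and ATF4, and DDIT3 (CHOP) is a late arm of that response. Cells that secrete heavily, such as the ameloblasts that lay down enamel matrix in teeth, carry a large endoplasmic reticulum.

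In batch A, 8 of the 10 genes were higher in Sox2-positive than in Sox2-negative cells and none was lower (edgeR quasi-likelihood test, Benjamini-Hochberg adjusted p under 0.05), where 21.8% of the 17190 genes tested passed as higher and 27.6% as lower, 49.5% in all. Batch B had 4 of the genes higher and 3 lower, beside 17.5% and 25% of all genes, 42.6% together. The difference between the populations was smaller or turned round in batch B for 7 genes, all chaperones, lectins or isomerases (population by batch interaction, called for 7.04% of all genes). The genes' median log2 difference between the populations was 0.70 in batch A and 0.59 in batch B, where the median over all genes was -0.13 and -0.11. Together the 10 genes held 0.555 ± 0.0310% of all counts (SD) in the Sox2-positive libraries of batch A and 0.326 ± 0.0206% in those of batch B. The share was 0.277 ± 0.0227% in the Sox2-negative libraries of batch A and 0.303 ± 0.0141% in those of batch B. Sox2-positive cells of batch A thus stood well above the other three.

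The promoters of these genes are shown because ATF6 and XBP1 are known to act on a short element, the endoplasmic reticulum stress response element, searched for here as CCAAT, then 9 bases of any kind, then CCACG, on both strands of the RefSeq promoter windows (GRCm38.p6, from 250 bases before to 50 bases after the gene's start). It was found in 5 of the 10 windows, against 39 of 32851 windows over all genes, or 0.119%. On the given strand alone it was in 4 of the 10. The element was searched for because of its known part in this response. Matches in these genes were thus likely beforehand, and the count is not independent evidence. In each stretch below the element is in capitals, 5′ to 3′ on the gene's strand. In Hsp90b1 the second copy, and in Calr the only copy, read CGTGG first and ATTGG last because they match on the opposite strand.
Hspa5, chr2:34771940-34772089, plus strand: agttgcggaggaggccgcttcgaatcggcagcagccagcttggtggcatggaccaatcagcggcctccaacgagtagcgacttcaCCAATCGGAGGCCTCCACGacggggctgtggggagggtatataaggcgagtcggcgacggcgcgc
Hsp90b1, chr10:86705503-86705686, minus strand: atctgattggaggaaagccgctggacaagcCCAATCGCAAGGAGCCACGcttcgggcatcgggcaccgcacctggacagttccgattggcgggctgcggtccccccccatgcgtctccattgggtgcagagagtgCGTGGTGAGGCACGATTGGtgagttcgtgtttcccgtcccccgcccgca
Calr, chr8:84847045-84847123, minus strand: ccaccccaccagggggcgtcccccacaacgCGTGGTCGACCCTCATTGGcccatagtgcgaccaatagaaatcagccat
Canx, chr11:50325770-50325848, minus strand: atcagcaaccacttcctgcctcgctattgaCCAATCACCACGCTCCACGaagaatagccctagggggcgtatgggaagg
Pdia6, chr12:17266461-17266539, plus strand: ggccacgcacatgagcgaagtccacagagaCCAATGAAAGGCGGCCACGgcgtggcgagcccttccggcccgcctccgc
The element ended 46 bases before the RefSeq start of Hspa5, 193 and 88 bases before that of Hsp90b1, and 143, 126 and 79 bases before those of Calr, Canx and Pdia6. All of these stretches lie before the RefSeq start, although the GENCODE M21 models of Hspa5 and Hsp90b1 begin inside the printed stretches, at chr2:34771970 and chr10:86705509. That of Pdia6 begins between its printed stretch and the RefSeq start, at chr12:17266545. The printed matches are descriptions of the sequence, not measured binding.

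The other 5 promoters held no exact match, and their nearest stretches are shown with the letters that fit in capitals. A window with at most 1 mismatch in the 10 fixed letters is 1.5% of all windows, with at most 2 mismatches 17.9% and with at most 3 mismatches 80.5%, so the last of these carries no information.
Pdia3, 1 mismatch: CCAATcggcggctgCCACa
Pdia4, 1 mismatch, opposite strand: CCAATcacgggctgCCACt
Ddit3, 1 mismatch, opposite strand: CCAATcagaaagcggCACG
Dnajb9, 2 mismatches: gCAAcaacagttttCCACG
Xbp1, 3 mismatches: CtAAgccggatatgCCACc
Searches for related elements covered ERSE-II (ATTGG, any 1 base, then CCACG, in 0.0365% of all windows) and the unfolded protein response element (TGACGTGG, 0.676%). They also covered the C/EBP-ATF response element (TGATGNAAT, 0.965%). They found 0 matches in the 10 windows on either strand. Sites further than 250 bases before the start were not searched.

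Library totals lay between 2305778 and 9541443 estimated counts, or, in megacounts, 3.71 to 4.83 in Sox2-negative and 3.93 to 5.94 in Sox2-positive libraries of batch A, and 6.4 to 9.54 and 2.31 to 7.11 in those of batch B. A level of 3 counts corresponds to between 0.314 and 1.30 CPM, which is a count expressed relative to the scaled total of its library, the smallest level this depth can show, and that floor covers counting error only. Single-gene counts of the 10 genes ran from 20 to 7789 per library. Sox2 itself was at 7.27 ± 4.41 CPM in batch A Sox2-positive and 0.0436 ± 0.107 CPM in batch A Sox2-negative libraries, and at 16.4 ± 2.91 and 0.297 ± 0.594 CPM in batch B. The Sox2-negative means lie below the floor. The summed level of 6 epithelial markers, the labelled cell type of the Sox2-positive sort, was 3565 to 5705 CPM in Sox2-positive and 144 to 390 CPM in Sox2-negative libraries. The Sox2-negative fraction was a mixture: 7 of 7 mesenchymal, 7 of 7 odontoblast, 6 of 6 leukocyte, 6 of 6 erythroid and 5 of 5 endothelial markers were higher in it than in Sox2-positive cells in both batches. Of the 5 tested ameloblast markers, 3 were higher in it and 1 lower in batch A, and 4 higher in batch B, with sums of 747 to 940 against 293 to 349 CPM and of 596 to 712 against 9.80 to 17.3 CPM. Glial markers went the other way, 6 of 6 higher in Sox2-positive cells in both batches, with sums of 782 to 995 against 1.68 to 14.96 CPM in batch A and 36.3 to 73.9 against 6.52 to 14.0 CPM in batch B. The part of these markers' cells in the population differences below was not tested. In such bulk samples, fewer cells of a type and less RNA per cell cannot be told apart. Batch B libraries numbered 1 and 2 stood apart from the others of their group, with 22831 to 23720 genes detected against 20312 to 20520 in Sox2-negative cells, and 20809 to 21110 against 17765 to 19859 in Sox2-positive cells. Fits without batch B libraries 1 and 2 keep 2 Sox2-negative and 5 Sox2-positive libraries of that batch. A call lost in them also comes with fewer libraries.

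**Figure D1:**
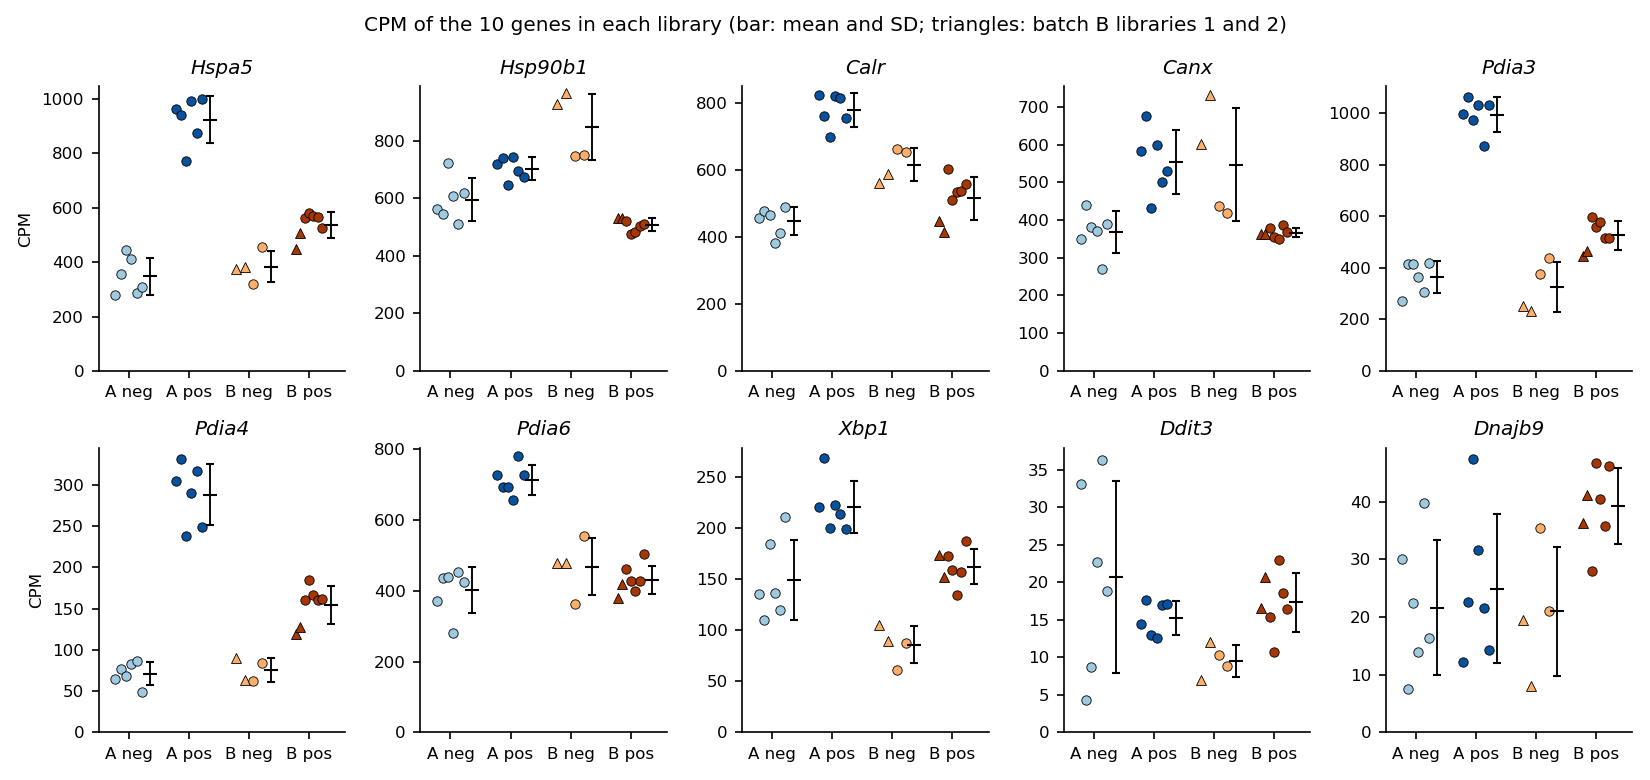
CPM on a linear axis from 0 for each of the 10 genes, 1 panel a gene, with 1 point for each library in the 4 groups (A or B for the batch, neg or pos for the Sox2 sort), a bar for the group mean and SD, and triangles for batch B libraries 1 and 2. Batch A Sox2-positive libraries lie above every other library for Hspa5, Calr, Pdia3, Pdia4 and Pdia6, while Ddit3 and Dnajb9 overlap between the populations in both batches.

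Hspa5 encodes BiP, the main Hsp70 chaperone of the endoplasmic reticulum, and lies at chr2:34771970-34777547 (GRCm38, plus strand). Its level was 279 to 445 CPM in batch A Sox2-negative libraries (median 332) and 772 to 999 CPM in batch A Sox2-positive libraries (median 953). The batch B Sox2-negative libraries 1 to 4 read 374, 383, 319 and 456 CPM, and the 7 batch B Sox2-positive libraries lay between 447 and 582 CPM (median 562). The populations were thus clear of each other in batch A and touched in batch B, where 1 Sox2-negative library reached into the Sox2-positive range. Hspa5 was 2.66-fold higher in Sox2-positive cells in batch A (log2 difference 1.41, SE 0.11, adjusted p = 1.11e-10) and 1.40-fold higher in batch B (0.49, SE 0.12, adjusted p = 0.00224).

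Hsp90b1 encodes GRP94, the Hsp90 chaperone of the same compartment (chr10:86690209-86705509, minus strand). Batch A Sox2-negative libraries held 511 to 723 CPM (median 585) and batch A Sox2-positive libraries 645 to 744 CPM (median 707). In batch B the Sox2-negative libraries read 926, 965, 748 and 751 CPM, all above the Sox2-positive range of 474 to 531 CPM (median 511). The populations overlapped in batch A and did not in batch B, with the order turned round. In the fit, Hsp90b1 was 1.18-fold higher in Sox2-positive cells in batch A (log2 0.24, SE 0.08, adjusted p = 0.0201) and lower in batch B, at 0.600 of the Sox2-negative level (log2 -0.74, SE 0.09, adjusted p = 2.51e-07). The batch A call was lost without Sox2-negative replicate 5 (log2 0.20, adjusted p = 0.0580), whereas the batch B call held in every alternative run. Of the 31-base words in Hsp90b1 transcripts, 12.3% also occur in another gene on either strand, 8.25% in 1810014B01Rik, which overlaps it on the opposite strand, and the strand setting of the counting is not given in the sources used here.

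Calr encodes calreticulin, a soluble lectin that binds calcium and holds glycoproteins (chr8:84841850-84846934, minus strand). Its batch A levels were 381 to 488 CPM in Sox2-negative (median 460.3) and 697 to 823 CPM in Sox2-positive libraries (median 786), without overlap. Batch B Sox2-negative libraries read 559, 586, 662 and 652 CPM, and batch B Sox2-positive libraries lay between 415 and 601 CPM (median 534). The batch B groups overlapped through 1 Sox2-positive library, at 601 CPM, and the other Sox2-positive libraries lay below every Sox2-negative library. Calr was 1.74-fold higher in Sox2-positive cells in batch A (log2 0.80, SE 0.09, adjusted p = 5.02e-08) and stood at 0.837 of the Sox2-negative level in batch B (log2 -0.26, SE 0.10, adjusted p = 0.0332). That batch B call was lost in most alternatives, with adjusted p between 0.0277 and 0.420 over them, and at -0.22 (adjusted p = 0.144) without batch B libraries 1 and 2.

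Canx encodes calnexin, the membrane-bound partner of calreticulin (chr11:50293961-50325673, minus strand). It ranged from 271 to 439.8 CPM in batch A Sox2-negative (median 376) and from 432 to 676 CPM in batch A Sox2-positive libraries (median 555). The batch B Sox2-negative libraries read 603, 732, 436 and 418 CPM, the first pair well above the second, and the Sox2-positive libraries were tightly placed between 350.2 and 387 CPM (median 364). The groups just overlapped in batch A and were separate in batch B, with Sox2-negative higher. Canx was 1.51-fold higher in Sox2-positive cells in batch A (log2 0.59, SE 0.13, adjusted p = 0.000403) and at 0.670 of the Sox2-negative level in batch B (log2 -0.58, SE 0.14, adjusted p = 0.00115). Without batch B libraries 1 and 2, which leaves 2 Sox2-negative libraries there, the batch B difference was -0.17 (adjusted p = 0.452) and no longer called.

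Of the protein disulfide isomerases, Pdia3 (ERp57), which works with calnexin and calreticulin on glycoproteins, lies at chr2:121413775-121438687 (plus strand). It ranged from 271 to 419 CPM in batch A Sox2-negative (median 389) and from 873 to 1064 CPM in batch A Sox2-positive libraries (median 1015). Batch B Sox2-negative libraries read 253, 234, 378 and 437 CPM, and Sox2-positive libraries 445 to 599 CPM (median 518). The populations did not overlap in either batch, with the Sox2-positive higher both times. Pdia3 was 2.73-fold higher in Sox2-positive cells in batch A (log2 1.45, SE 0.13, adjusted p = 1.59e-09) and 1.61-fold higher in batch B (log2 0.69, SE 0.15, adjusted p = 0.000425).

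Pdia4 (ERp72), an isomerase with several thioredoxin-like domains (chr6:47796141-47813430, minus strand), showed the largest difference of the 10 genes in batch A. Its level was 48.6 to 86.6 CPM in batch A Sox2-negative (median 72.7) and 238 to 331 CPM in batch A Sox2-positive libraries (median 297). In batch B the Sox2-negative libraries read 90.7, 63.3, 62.5 and 84.3 CPM and the Sox2-positive libraries 119 to 185 CPM (median 160.1). Again neither batch showed overlap, and the Sox2-negative levels were alike in the batches while the Sox2-positive levels were not. The difference was 4.04-fold in batch A (log2 2.01, SE 0.15, adjusted p = 2.57e-11) and 2.05-fold in batch B (log2 1.04, SE 0.16, adjusted p = 1.2e-05).

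Pdia6 (P5), an isomerase that associates with BiP (chr12:17266545-17284770, plus strand), ranged from 281 to 453 CPM in batch A Sox2-negative (median 431) and from 657 to 779.6 CPM in batch A Sox2-positive libraries (median 710.1). Batch B Sox2-negative libraries read 479, 478, 361 and 554 CPM, around the Sox2-positive range of 380.3 to 503 CPM (median 427). The populations were separate in batch A and lay within each other in batch B. Pdia6 was 1.78-fold higher in Sox2-positive cells in batch A (log2 0.83, SE 0.11, adjusted p = 5.73e-07). In batch B the log2 difference was -0.12 (95% interval -0.35 to 0.11, adjusted p = 0.425) and took the other sign, at 0.03, when libraries were scaled by total count.

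Xbp1 encodes a transcription factor of the unfolded protein response whose activity depends on splicing by IRE1, which gene-level counts do not show (chr11:5520659-5525893, plus strand). It ranged from 109 to 210.1 CPM in batch A Sox2-negative (median 136) and from 199 to 268 CPM in batch A Sox2-positive libraries (median 216). Batch B Sox2-negative libraries read 104, 89.6, 61.0 and 87.2 CPM and Sox2-positive libraries 134 to 187 CPM (median 159). The batch A groups overlapped slightly and the batch B groups did not. Xbp1 was 1.48-fold higher in Sox2-positive cells in batch A (log2 0.56, SE 0.15, adjusted p = 0.00294) and 1.89-fold higher in batch B (log2 0.92, SE 0.17, adjusted p = 8.01e-05). It was the only one of the 8 genes called in batch A whose fitted difference was larger in batch B, but that change was not called (interaction 0.36, 95% interval -0.08 to 0.79, adjusted p = 0.401).

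Ddit3, which encodes CHOP, a transcription factor tied to cell death after long stress (chr10:127290774-127296288, plus strand), was among the least abundant. Its level was 4.27 to 36.3 CPM in batch A Sox2-negative (median 20.8, from 20 to 173 counts), 12.6 to 17.6 CPM in batch A Sox2-positive (median 15.7) and 10.7 to 22.96 CPM in batch B Sox2-positive libraries (median 16.5). The batch B Sox2-negative libraries read 7.01, 12.001, 10.3 and 8.84 CPM. The populations overlapped in both batches, and the widest spread was in batch A Sox2-negative cells. The log2 difference was -0.44 in batch A (95% interval -1.16 to 0.28, adjusted p = 0.337) and 0.86 in batch B (0.05 to 1.67, adjusted p = 0.0947), and neither was called. Without batch A Sox2-negative replicate 2 the batch B difference was called (adjusted p = 0.0436), as it was when batch B was fitted alone (adjusted p = 0.0126). Ddit3 overlaps the gene Mars on the opposite strand.

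Dnajb9 encodes ERdj4, a co-chaperone of BiP (chr12:44205559-44210326, minus strand). It ranged from 7.48 to 39.7 CPM in batch A Sox2-negative (median 19.4) and from 12.2 to 47.4 CPM in batch A Sox2-positive libraries (median 22.1). Batch B Sox2-negative libraries read 19.5, 8.10, 35.4 and 21.1 CPM, and Sox2-positive libraries 28.1 to 46.8 CPM (median 40.5). Both batches showed overlap, in batch B through Sox2-negative library 3. The log2 difference was 0.20 in batch A (95% interval -0.52 to 0.93, adjusted p = 0.673) and 0.90 in batch B (0.10 to 1.70, adjusted p = 0.0783). The batch B value was called by limma-voom (adjusted p = 0.00419), by DESeq2 (0.0463) and with total-count scaling (0.0469). It was also called with batch B fitted alone (0.0128) and without Sox2-negative replicate 3 (0.0220). It was 0.52 (adjusted p = 0.520) without batch B libraries 1 and 2. Of its 31-base words, 10.8% are shared with another gene, the pseudogene Gm6568 among them.

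Counted over the libraries themselves, 5 of the 10 genes had no overlap between the populations in batch A, all with Sox2-positive higher (Hspa5, Calr, Pdia3, Pdia4 and Pdia6), where 25.2% of all genes tested had none in either direction. In batch B the genes without overlap were Pdia3, Pdia4 and Xbp1, with Sox2-positive higher, and Hsp90b1 and Canx, with Sox2-negative higher, where the share over all genes was 36.4%. Without batch B libraries 1 and 2 the batch B calls were 4 higher and 1 lower, Hsp90b1, beside 23.9% of 18629 genes.

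**Figure D2:**
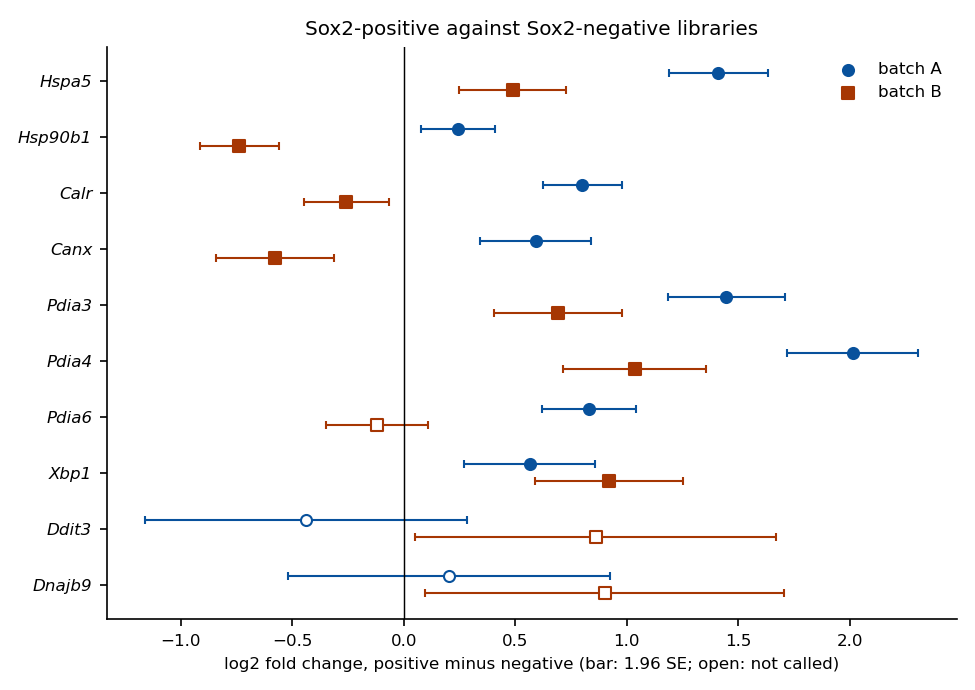
The log2 difference of Sox2-positive from Sox2-negative cells for each gene in batch A (circles) and batch B (squares), with bars for the 95% interval, open symbols where the gene was not called and a line at 0. All 8 genes called in batch A lie to the right of 0 there, whereas Hsp90b1, Calr and Canx lie to the left in batch B, and the interval of Pdia6 spans 0.

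The test of the change between batches was negative, meaning a lower difference of Sox2-positive from Sox2-negative cells in batch B, for 7 of the 10 genes and positive and called for 0, where 4.22% of all genes were negative and 2.82% positive. For the lectins it was -1.06 for Calr (SE 0.13, adjusted p = 4.76e-06) and -1.17 for Canx (SE 0.19, adjusted p = 0.000145). The chaperones gave -0.92 for Hspa5 (SE 0.16, adjusted p = 0.000547) and -0.98 for Hsp90b1 (SE 0.12, adjusted p = 6.24e-06). The isomerases gave -0.76 for Pdia3 (SE 0.19, adjusted p = 0.0149), -0.98 for Pdia4 (SE 0.21, adjusted p = 0.00416) and -0.95 for Pdia6 (SE 0.16, adjusted p = 0.000256). The 7 values, grouped here because they were called, lay between -1.17 and -0.76. Those of the stress regulators and the co-chaperone were not called: 0.36 for Xbp1, 1.30 for Ddit3 (adjusted p = 0.175) and 0.70 for Dnajb9 (adjusted p = 0.534). Ddit3 and Dnajb9 had lower counts, down to 20 and 35 in a library. The list's median was -0.94 against 0.02 over all genes. Pdia3 lost its call under limma-voom (adjusted p = 0.0530) and without batch B Sox2-negative replicate 4 (-0.58, adjusted p = 0.0627), and Pdia4 without batch B libraries 1 and 2 (-0.84, adjusted p = 0.0504). Ddit3 gained a positive call without batch A Sox2-negative replicate 2 (1.51, adjusted p = 0.0464). The comparisons between populations and between batches share libraries, so their values are set side by side and are not independent.

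Within Sox2-positive cells, 8 of the 10 genes were lower in batch B than in batch A and 0 higher, where 5.54% of all genes were lower and 4.85% higher, 10.4% in all. The log2 differences were -0.92 for Pdia3 (SE 0.13, adjusted p = 9.23e-06), -0.90 for Pdia4 (SE 0.14, adjusted p = 4.59e-05), -0.78 for Hspa5 (SE 0.11, adjusted p = 8.6e-06) and -0.73 for Pdia6 (SE 0.10, adjusted p = 1.61e-05). They were smaller for Calr (-0.60, adjusted p = 1.92e-05), Canx (-0.59, adjusted p = 0.00139), Hsp90b1 (-0.47, adjusted p = 0.000229) and Xbp1 (-0.44, adjusted p = 0.0468). For these same 8 genes every batch A library lay above every batch B library, where 8.56% of all genes did not overlap in either direction. Ddit3 (0.18, adjusted p = 0.857) and Dnajb9 (0.65, adjusted p = 0.301) were not called. Under limma-voom Dnajb9 was called higher in batch B (0.76, adjusted p = 0.0454). The Xbp1 call lies at the threshold: it was kept in 8 of 23 fits without 1 library, and was lost with no filter on low counts (adjusted p = 0.106) and without batch B libraries 1 and 2 (-0.45, adjusted p = 0.108), with adjusted p up to 0.142.

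Markers of other cells and immediate early genes moved with this difference between the batches in Sox2-positive cells. The summed level of 6 glial markers was 782 to 995 CPM in batch A and 36.3 to 73.9 CPM in batch B, with 6 of 6 lower. The summed level of the ameloblast list was 293 to 349 CPM in batch A and 9.80 to 17.3 CPM in batch B, with 4 of its 5 tested genes lower. The mesenchymal sum was 1222 to 1772 and 597 to 677 CPM, with 3 of 7 lower and Twist1 at 0 counts in every Sox2-positive library. Immediate early genes, which are transcribed rapidly after many kinds of stimulus, summed to 1512 to 2089 CPM in batch A and 123 to 226 CPM in batch B, with 8 of 8 lower and Fos at 663 ± 70.5 and 5.57 ± 2.48 CPM (log2 -6.95, SE 0.26, adjusted p = 1.03e-16). Their part in the lower chaperone levels was not tested, and day, mice and batch cannot be told apart.

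Within Sox2-negative cells the 10 genes were divided between the batches: Hsp90b1 (log2 0.51, SE 0.09, adjusted p = 0.000527), Calr (0.46, SE 0.10, adjusted p = 0.00263) and Canx (0.58, SE 0.14, adjusted p = 0.0072) were higher in batch B, and Xbp1 was lower (-0.80, SE 0.17, adjusted p = 0.00257). Over all genes 5.85% were higher and 5.35% lower, 11.2% together. Hsp90b1 and Calr were higher in every batch B library than in any batch A library, and Xbp1 lower, where 8.87% of all genes did not overlap. The remaining 6 genes were not called: Hspa5 0.14, Pdia3 -0.17, Pdia4 0.08, Pdia6 0.22, Ddit3 -1.12 and Dnajb9 -0.04, with adjusted p of 0.532, 0.532, 0.832, 0.249, 0.0911 and 0.967, and with total-count scaling the values of Hspa5 (-0.01) and Pdia4 (-0.07) turned negative. Without batch B libraries 1 and 2, Hsp90b1 (0.34, adjusted p = 0.0868) and Canx (0.22, adjusted p = 0.487) were not called, while Calr (0.56) and Xbp1 (-1.01) were, beside 4.05% of 18629 genes. Canx also lost its call without batch B Sox2-negative replicate 2 (adjusted p = 0.0633), and Ddit3 gained one without batch A Sox2-negative replicate 2 (adjusted p = 0.0168) or replicate 3 (0.0456) and with DESeq2 (0.0330).

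The makeup of the Sox2-negative fraction differed between the batches as well. Erythroid markers summed to 983 to 1175 CPM in batch A and 53603 to 62032 CPM in batch B, with 5 of 6 higher. Leukocyte markers fell from 1040 to 1271 CPM down to 218 to 295 CPM, with 4 of 6 lower, and endothelial markers from 540 to 747 CPM down to 136 to 209 CPM, with 5 of 5 lower. The mesenchymal sum was 10973 to 12295 CPM in batch A and 10013 to 12910 CPM in batch B, with 1 of 7 higher and 0 lower. Col1a1 (means 6221 and 5962 CPM) and Col1a2 (2966 and 3019 CPM) made up most of it. Pdgfra (130 and 325 CPM), Prrx1 (117 and 231) and Twist1 (25.6 and 47.7) were higher in batch B without overlap. Means of Col1a1, Col3a1 and Pdgfrb were lower there. The immediate early genes summed to 746 to 926 and 184 to 242 CPM, with 6 of 8 lower. The part of these cells in the differences of Hsp90b1, Calr, Canx and Xbp1 was not tested.

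**Figure D3:**
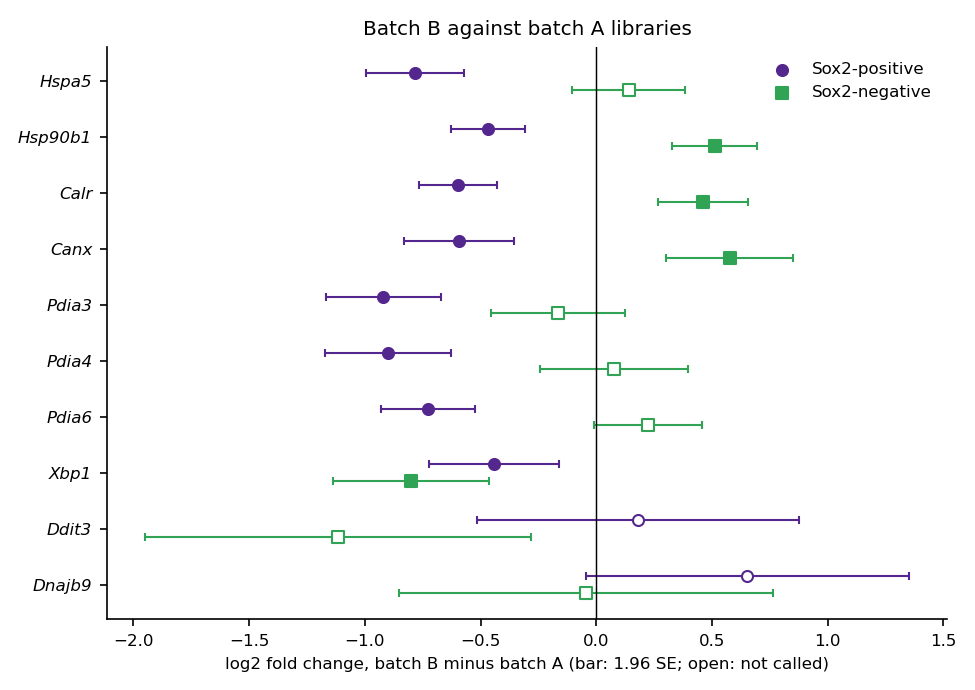
The log2 difference of batch B from batch A for each gene within Sox2-positive and within Sox2-negative cells, with bars for the 95% interval, open symbols where the gene was not called and a line at 0. The 8 genes called in Sox2-positive cells lie to the left of 0, while Hsp90b1, Calr and Canx lie to the right in Sox2-negative cells.

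Batch B libraries 1 and 2 differed from the others of their population without overlap in 11 of 20 comparisons of a gene in a population. In Sox2-positive cells they were lower for Hspa5, Calr, Pdia3 and Pdia4 and higher for Hsp90b1. In Sox2-negative cells they were higher for Hsp90b1, Canx and Xbp1 and lower for Calr, Pdia3 and Dnajb9. They also carried a share of mitochondrial counts of 1.711 to 1.773% against 2.325 to 2.47% in Sox2-negative and 4.169 to 4.315% against 3.533 to 3.941% in Sox2-positive cells. Without them, 8 of the 10 genes were called between the populations in batch A (45.6% of all genes), 5 in batch B (23.9%), 6 in the interaction (2.58%), 7 between batches in Sox2-positive cells (6.22%) and 2 in Sox2-negative cells (4.05%).

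To compare levels between genes, CPM was divided by the length of each gene's joined exons in kilobases. In batch A Sox2-positive cells the order of levels per length began with Pdia3 (317 ± 21.6 CPM per kilobase), Calr (269.9 ± 17.2), Hspa5 (219 ± 20.6), Pdia6 (190.4) and Hsp90b1 (174), and went on through Pdia4 (120.1), Canx (118) and Xbp1 (67.8) to Dnajb9 (9.78) and Ddit3 (8.90). Neighbours in that order overlapped over libraries in 5 of 9 pairs, and the steps without overlap were from Calr to Hspa5, Hsp90b1 to Pdia4, Canx to Xbp1 and Xbp1 to Dnajb9. In the other 3 groups Calr came first, at 155 ± 14.4 CPM per kilobase in batch A Sox2-negative, 213 in Sox2-negative and 179 in Sox2-positive cells of batch B, followed by Hsp90b1 (147 and 210.2) in both Sox2-negative groups and by Pdia3 (168) in batch B Sox2-positive cells. Neighbours overlapped in 9 of 9, 6 of 9 and 6 of 9 pairs there. Such ranges do not compare 2 genes within the same library, so overlap alone does not settle whether the order is resolved. By joined exons Hspa5 held rank 3 in both Sox2-positive groups and rank 5 or 6 in the Sox2-negative groups (82.2 and 90.6 CPM per kilobase). By the longest transcript it held rank 4 and 5 in the Sox2-positive groups, and Pdia6 in batch B Sox2-positive cells moved from rank 5 (115 CPM per kilobase) to rank 2 (198).

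**Figure D4:**
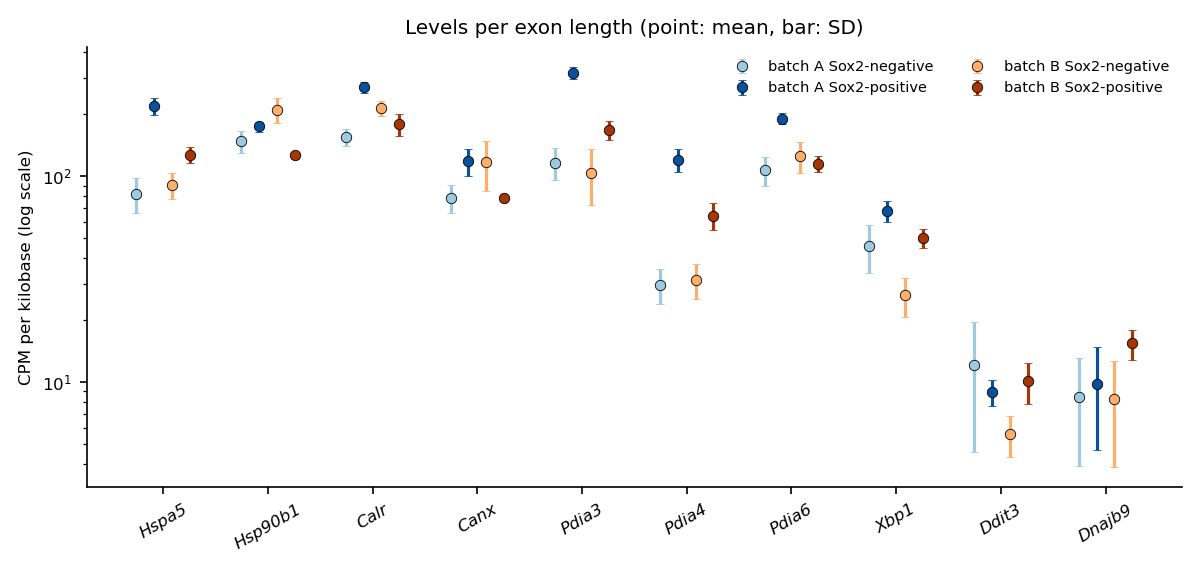
CPM per kilobase of joined exons on a log axis for the 10 genes in the 4 groups, with points at the group mean and bars of 1 SD. Ddit3 and Dnajb9 lie at the bottom in every group, and Pdia3 leads in batch A Sox2-positive cells at 317, whereas Calr leads in the other 3 groups.

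Of 11082 genes with a mean of at least 10 CPM, those whose pattern over the 23 libraries lay nearest to Hspa5, by root mean square difference of centred log2 CPM, were Hspd1 (0.22), a mitochondrial chaperonin, Tpi1 (0.23), a glycolytic enzyme, and Ybx1 (0.24), an RNA-binding protein. Hspd1 had 144 and 326 CPM in Sox2-negative and Sox2-positive libraries of batch A and 182 and 224 CPM in those of batch B, the same order of groups as Hspa5. The nearest to Xbp1 were Arl6ip1 (0.24), Polr2c (0.25) and Clns1a (0.26). Arl6ip1, a shaping protein of the endoplasmic reticulum membrane, had 163, 233, 116 and 207 CPM in the same order of groups. Ddit3 had no gene as near: Tars (0.43), a threonyl-tRNA synthetase, Tmem216 (0.44) and Krba1 (0.51) came first. Ddit3 varied widely among libraries of batch A Sox2-negative cells (20.7 ± 12.8 CPM). Its larger distances therefore cannot be read as a distinct pattern. These distances describe libraries that share their sort and batch.

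For the lists that follow, the shares over all genes are 21.8% higher and 27.6% lower between populations in batch A, 17.5% and 25% in batch B, 4.85% and 5.54% between batches in Sox2-positive cells and 5.85% and 5.35% in Sox2-negative cells, and 2.82% and 4.22% in the interaction. Among 21 other folding helpers of the endoplasmic reticulum, 5 were higher and 5 lower in Sox2-positive cells in batch A, against 2 higher and 6 lower in batch B. P4hb, the isomerase that also serves collagen prolyl hydroxylation, was at 761 ± 122 and 742 ± 56.6 CPM in batch A Sox2-negative and Sox2-positive cells, and at 1744 ± 495 and 596 ± 30.5 CPM in batch B. It was lower in Sox2-positive cells in batch B (log2 -1.55, SE 0.12, adjusted p = 1.04e-10), with an interaction of -1.51 (SE 0.17, adjusted p = 1.25e-06). Serpinh1, the collagen chaperone HSP47, was lower in Sox2-positive cells in both batches (log2 -0.85 and -2.20, adjusted p = 0.000988 and 3.77e-09), with an interaction of -1.34 (adjusted p = 0.00416) that was lost without batch B libraries 1 and 2 (-0.88, adjusted p = 0.0924). Sdf2l1, a partner of BiP complexes, was higher in Sox2-positive cells in both batches (1.43 and 1.14, adjusted p = 5.38e-07 and 9.01e-05).

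Within Sox2-positive cells 5 of these 21 helpers were lower in batch B and 0 were higher, the rest not being called. Those lower were Sdf2l1 (-1.16, adjusted p = 3.83e-05), Creld2 (-0.95, adjusted p = 0.000528), Manf (-0.73, adjusted p = 8.4e-05) Dnajb11 (-0.61, adjusted p = 0.00314), a co-chaperone of BiP, and Fkbp2 (-0.78, adjusted p = 9.29e-05), a prolyl isomerase that was not on the list of genes to name and is named after its value was seen. The list's median was -0.24, against -0.59 for the 10 genes and 0 over all genes. Hyou1, an exchange factor of BiP, was at 32.8 ± 11.4 and 23.3 ± 9.31 CPM in batch A and batch B Sox2-positive cells, and Dnajc3, another co-chaperone, at 101.4 ± 13.6 and 107 ± 21.3 CPM, neither called. In Sox2-negative cells 3 helpers were higher in batch B, P4hb among them (1.20, adjusted p = 3.89e-07), and 3 lower, Sdf2l1 (-0.87, adjusted p = 0.00783) and Creld2 (-0.77, adjusted p = 0.0164) among them. Without batch B libraries 1 and 2 the last 2 were not called, at -0.60 (adjusted p = 0.246) and -0.83 (adjusted p = 0.111), and Sdf2l1 was also lost with no filter on low counts (-0.85, adjusted p = 0.0526).

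Of 6 sensors of unfolded protein and proteases that cut ATF6, 2 were higher and 1 lower in Sox2-positive cells in batch A, 0 and 1 in batch B, with 0 called between batches in Sox2-positive cells and 1 higher in batch B in Sox2-negative cells. Ern1 (IRE1) lay between group means of 8.16 and 12.8 CPM, Eif2ak3 (PERK) between 14.7 and 24.2 CPM and Atf6 between 17.2 and 33.0 CPM, and these 3 were not called in any of the 5 comparisons. Of 11 genes of the integrated stress response, 3 were higher and 5 lower in Sox2-positive cells in batch A, against 0 higher and 5 lower in batch B. Atf4, its main transcription factor, was lower in both (-0.50 and -0.60, adjusted p = 0.0037 and 0.00159), the batch A call being lost with no filter on low counts (-0.41, adjusted p = 0.0670). Asns, an ATF4 target that makes asparagine, was higher in batch A (1.30, adjusted p = 5.74e-05). Ppp1r15a (GADD34), which restores translation, was lower in batch B (-1.51, adjusted p = 0.000515) and in batch A (-0.77, adjusted p = 0.041), the latter lost in most alternatives and the former without batch B libraries 1 and 2 (-0.93, adjusted p = 0.141). Atf3 was at 12.1 ± 11.8 and 16.8 ± 6.32 CPM in Sox2-negative and Sox2-positive libraries of batch A and at 4.28 ± 4.20 and 7.94 ± 1.94 CPM in those of batch B, and was not called. In the interaction, 0 of the 6 sensors and 0 of the 11 stress response genes were called.

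Of 15 genes of degradation from the endoplasmic reticulum, 7 were higher and 2 lower in Sox2-positive cells in batch A, against 2 higher and 4 lower in batch B. Herpud1, a stress-induced part of that machinery, was higher in batch A (0.66, adjusted p = 0.0164), and Sel1l, the scaffold of its ubiquitin ligase, was lower in both batches (-1.09 and -2.46, adjusted p = 0.00283 and 2.64e-07). Of 21 genes of the translocon and of N-glycosylation, 8 were higher and 7 lower in batch A, against 5 higher and 6 lower in batch B, with Sec61b, a subunit of the protein channel, lower in both (-0.92 and -0.94, adjusted p = 1.26e-07 and 2.75e-07). Of the 4 tested CREB3-family factors, which drive secretory genes, 2 were higher in each batch and 0 lower. Creb3l1 was at 65.7 ± 22.9 and 85.8 ± 12.6 CPM in batch A Sox2-negative and Sox2-positive cells and at 106 ± 24.6 and 93.5 ± 12.02 CPM in batch B.

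Of 13 chaperones of the cytosol and mitochondria, 6 were higher and 2 lower in Sox2-positive cells in batch A, against 5 higher and 3 lower in batch B. Hspa8, the constitutive cytosolic Hsp70, was higher in both, by 0.95 and 0.98 on the log2 scale (adjusted p = 6.83e-12 and 4.16e-11), at nearly the same size in each. Within Sox2-positive cells 2 of the 13 were lower in batch B and 0 higher, Hspa1a among them (-1.55, SE 0.47, adjusted p = 0.034, called in 16 of 23 fits without 1 library and lost, at 0.146, without batch B libraries 1 and 2). The summed level was 5353 to 6044 CPM in batch A and 5215 to 5562 CPM in batch B. Hsp90ab1 (2197 and 2284 CPM) and Hspa8 (1812 and 1647 CPM) made up most of that sum, so it says little about the others. Without overlap of libraries, Hspd1 went from 326 to 224 CPM, whereas Hspb1 went from 108 to 165 CPM. In the interaction, 1 of these 13 chaperones was called higher and 2 lower.

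**Figure D5:**
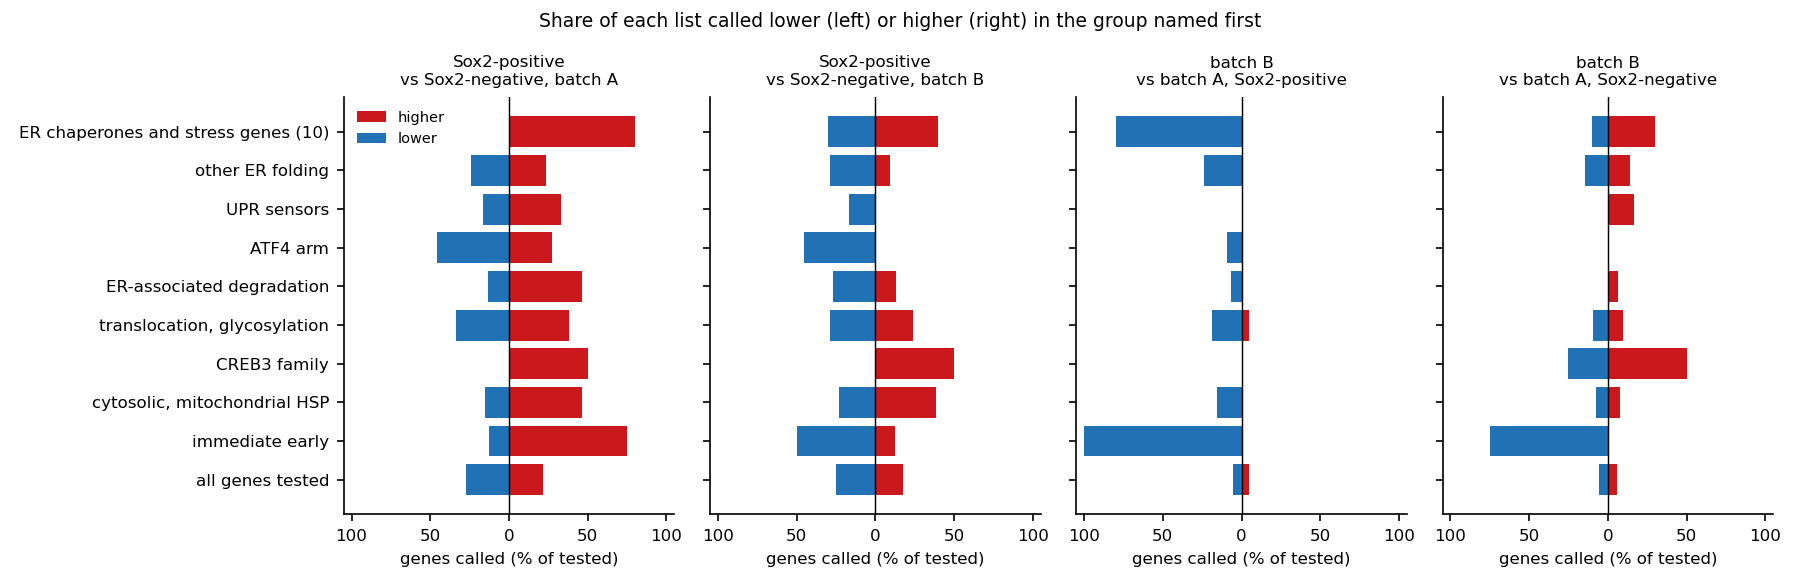
For each gene list, the share of its tested genes called higher (bars to the right) or lower (bars to the left) in the 2 population and 2 batch comparisons, in percent, with all genes tested in the bottom row. The 10 chaperone and stress genes have 8 of 10 higher in batch A and, among Sox2-positive cells, 8 of 10 lower in batch B than in batch A, whereas the 11 genes of the integrated stress response (ATF4 arm) have 3 higher and 5 lower in batch A.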

How the data were processed

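RNA was measured in 23 libraries of sorted cells from the lower incisor of mice at postnatal day 2, made by Smart-seq2 with Tn5 tagmentation per the labels' protocols. The authors deposited estimated counts (expected counts) of 54347 genes, not scaled to depth. FastQC, Trimmomatic, Salmon and the build mm10 are named per the submitters' processing notes, and versions, annotation and strand setting are not given in the sources used here. Symbols and positions came from GENCODE M21 (GRCm38) by Ensembl identifier without version (54094 matched, 99.5%), and unused columns of sample values numbered 0. A second Ddit3 identifier had 0 counts in every library, and the longer one was used.

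Counts were rounded and tested with edgeR 4.0.16 in R 4.3.3: TMM scaling, the filterByExpr filter with a minimum count of 10 (17190 genes), a model of the 4 group means, the two-sided quasi-likelihood F test and Benjamini-Hochberg adjustment, with calls at an adjusted p under 0.05. The SE of a log2 difference is its size over the root of the F statistic, and 95% intervals take the error as normal. CPM used TMM-scaled totals. The model was tested on simulated data.

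Genes named outside the 10 were set by role in the pathway lists, plus the 3 genes nearest in pattern to Hspa5, Xbp1 and Ddit3 (prior count 2). The 10 genes and all lists were chosen with earlier results of these data known. Alternatives were DESeq2 1.42.0, limma-voom with quality weights for libraries (limma 3.58.1), and RLE and total-count scaling. Further ones were other filters, each batch alone, a replicate block, and leaving out libraries. Wherever limma-voom is named, the weighted form is meant. The promoters came from RefSeq, and all 10 symbols matched. ATAC-seq libraries were not analysed here.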

Additional observations from a re-analysis of the deposited data

Results flagged for a closer look

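The population by batch interaction, tested as the log2 difference between Sox2-positive and Sox2-negative cells in batch B minus that in batch A, passed an adjusted p under 0.05 for 7 of the 10 genes: Hspa5 (-0.92), Hsp90b1 (-0.98), Calr (-1.06), Canx (-1.17), Pdia3 (-0.76), Pdia4 (-0.98) and Pdia6 (-0.95). Among the other named genes it passed for P4hb (-1.51), Serpinh1 (-1.34, lost at -0.88 and adjusted p = 0.0924 without batch B libraries 1 and 2), Sel1l (-1.36, called in only 8 of 23 fits without 1 library) and the immediate early gene Fos (-3.66). Erythroid, glial and immediate early genes also differed between the batches, with the values given above, and their part was not tested.

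Xbp1 in batch A Sox2-positive replicate 2, at 268 CPM, stood apart as the highest of 6 libraries, with a gap to the next library of 0.657 of the whole range. It was 1 of 40 gene and group combinations tested, and chance flags about 1 in 20 groups.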

How the results depend on the processing

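Over all alternatives, 1477 of 1550 values of the 10 genes kept their direction and their side of the threshold, 49 lost a call, 12 gained one and 12 changed sign, all of the last from values that were not called. Sign changes came with total-count scaling for Pdia6 between populations in batch B (0.034) and, between batches in Sox2-negative cells, Hspa5 (-0.0071) and Pdia4 (-0.071), and without batch B libraries 1 and 2 for Pdia3 (0.16) and Dnajb9 (0.39) between batches in Sox2-negative cells. Leaving out 1 library gave -0.40 to 0.24 for Dnajb9 and -0.011 to 0.17 for Pdia4 in that comparison, -0.036 to 0.47 for Dnajb9 between populations in batch A and -0.17 to 0.026 for Pdia6 in batch B. The cause was not tested. Without batch B libraries 1 and 2, 4445 genes were called between populations in batch B, 481 in the interaction, 1159 between batches in Sox2-positive cells and 754 in Sox2-negative cells, with 2 of the 10 genes there, where all libraries gave 7319, 1210, 1785 and 1924 genes and 4 of the 10. Limma-voom called 3313 genes between batches in Sox2-positive cells. Leaving out 1 library at a time called 7 to 8 of the 10 genes between populations in batch A (8001 to 8778 of all genes), 6 to 8 in batch B (6362 to 7516), 6 to 8 in the interaction (938 to 1254), 7 to 8 between batches in Sox2-positive cells (1497 to 1892) and 3 to 5 in Sox2-negative cells (1331 to 1989). Over all genes tested, deviations of same-numbered libraries from their group means had correlations of -0.0212 to 0.044. Own number was the best match in 1 of 10. That check does not exclude a shift shared by several libraries. Batch B libraries 1 and 2 lay to the same side of the others in both populations for Hsp90b1 (higher), Calr and Pdia3 (lower). A replicate block called 8, 7 and 7 of the 10 genes between populations in batch A, in batch B and in the interaction, beside 7648, 5074 and 557 of all genes. A block could not be fitted between batches, where a number lies within 1 batch. Length taken from the longest transcript raised Pdia3 in batch A Sox2-positive cells from 317 to 359 CPM per kilobase, Pdia6 from 190.4 to 328, Xbp1 from 67.8 to 103 and Ddit3 from 8.90 to 15.7, and left 21 of 40 ranks unchanged. Ddit3 and Dnajb9 had the lowest counts of the 10 genes, down to 20 and 35 in a library. The part of depth in their spread was not tested.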
